A study of Homo sapiens with 2 samples.

Results

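The Wnt genes followed here are 46 genes fixed by symbol: Wnt ligands, their Frizzled and LRP receptors, R-spondin receptors, extracellular antagonists, feedback regulators, the nuclear effectors and genes widely used as targets of the pathway. Of these, 44 had a transcript cluster (the set of probes that reads 1 transcribed locus) carrying their symbol alone, out of 33616 genes named on the array. These names come from the annotation supplied with the values, whose platform is not the Human Transcriptome Array 2.0 that the study's design names, so the array design is not settled. FZD8 was not used because its cluster also carries the name of a microRNA, and no cluster was matched to TCF7, so neither has an expression value here. Where a gene had several clusters, the one with the highest mean of the 2 values stood for it.

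Total RNA was taken from Hep3B, an established human hepatocellular carcinoma line, at 80% confluence, and its transcripts were read on an Affymetrix array. There was 1 array of a Hep3B line in which endogenous SOX4, an HMG-box transcription factor, had been disrupted with CRISPR/Cas9 (genotype SOX4 KO) and 1 array of parental Hep3B cells (genotype wildtype). Both lines shared the same medium, but the knockout line was also kept in puromycin at 1 ug/ml, so genotype, drug, passage through selection and array cannot be told apart. The labels used here do not say whether the knockout line was a single clone. With 1 array per line there is no replicate check, no error and no test: "higher" and "lower" describe these 2 arrays, on the deposited log2 scale, and a difference is always knockout minus parental. Values on that scale cannot be compared between genes, since each gene is read by its own probes, and fewer cells of a type and less RNA per cell cannot be told apart in bulk RNA.

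Wnt proteins are secreted lipid-modified ligands that bind Frizzled receptors and the co-receptor LRP6. In the canonical branch this stops a cytoplasmic complex built on AXIN1 and APC from marking beta-catenin for destruction, and beta-catenin then enters the nucleus and acts with the HMG-box factors TCF7, TCF7L2 and LEF1. In the liver the pathway is known for setting the gene programme of hepatocytes around the central vein, among them GLUL, and mutations that switch it on are common in liver cancer.

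The targeted gene SOX4 stood at 12.44 in knockout cells and 13.14 in parental cells, a difference of -0.70, which is 1.62-fold. Probes can still read the transcript of an edited gene, so this value does not measure loss of the protein. The 9 measured hepatocyte and hepatoma markers had a median difference of -0.30, with 7 of them below 0 and 2 above. APOA1 and AFP were lower in the knockout by more than 2-fold, with differences of -1.17 and -5.77. AFP stood at 9.73 in knockout cells and 15.50 in parental cells. Among markers of other cells, LUM of the fibroblast and stellate list differed by 4.79, SPP1 of the cholangiocyte list by 2.52 and LYZ of the leukocyte list by 2.25. No other gene of these lists was 2-fold apart: the fibroblast list had 1 of 5 measured markers past 2-fold, the cholangiocyte list 1 of 5, the leukocyte list 1 of 4 and the endothelial list none of 5. The median difference was -0.13 for fibroblast, 0.08 for cholangiocyte, 0.15 for leukocyte and 0.04 for endothelial markers. The part of these markers in the Wnt values was not tested.

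Among the Wnt genes, 4 were higher in knockout cells by 2-fold or more: the receptor FZD6, the ligand WNT2B, the secreted antagonist SFRP4 and the receptor-like target TNFRSF19. None was lower by 2-fold or more, although the co-receptor LRP6 came close at -0.99. The 4 genes are 9.09% of the 44 measured members. Over all 33616 named genes 3.36% were higher by 2-fold or more and 1.94% lower, and over the 17579 that RefSeq lists as protein-coding the shares were 5.34% and 2.8%. The members' share of higher genes lay above both backgrounds and their share of lower genes below both. These shares rest on 4 and 0 genes, with no replicate array to test either. The members were chosen with earlier results of these data known, so this comparison is no independent support. The 148 measured genes of 9 further lists, described below, had 9 higher and 8 lower by 2-fold or more. The median difference of the members was 0.00, with 22 above and 22 below 0, and 29 of the 44 differed by less than 0.5. Over all named genes the median difference was also 0.00.

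**Figure D1:**
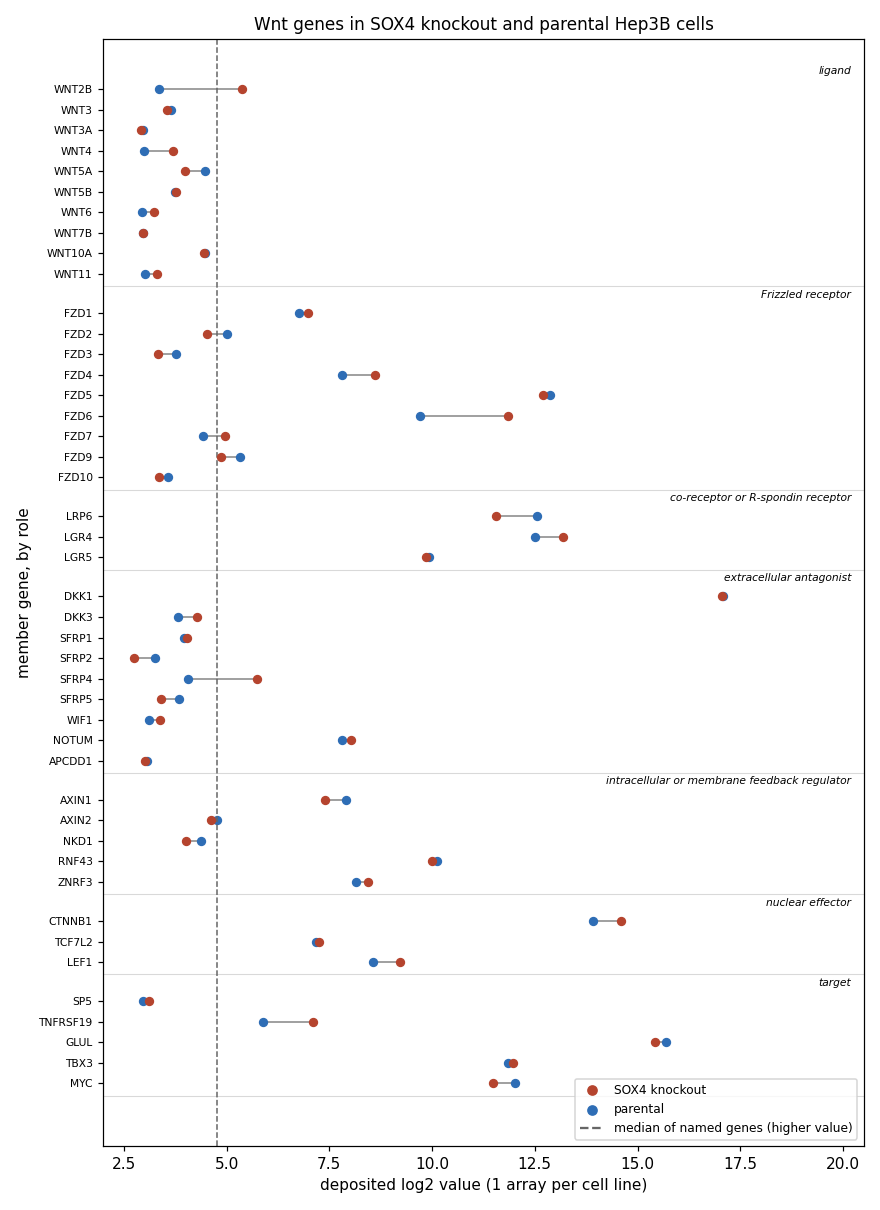
Deposited log2 value (horizontal axis) of each of the 44 measured Wnt genes, grouped by role, in the SOX4 knockout array (red) and the parental array (blue); the dashed line is the median over named genes of the higher value of each gene, 4.78. FZD6, WNT2B, SFRP4 and TNFRSF19 have the widest gaps with red to the right, LRP6 the widest with blue to the right, and DKK1 nearly the same value in both arrays, 17.06 and 17.07.

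A level filter gives a rough guide: 4.78 is the median, over all named genes, of the higher of a gene's 2 values. No call of detection against background was used here, and a place above or below the filter does not compare amounts between genes. Of the 44 members, 24 had a value above it. FZD6 and TNFRSF19 lay above it in both arrays, whereas WNT2B, SFRP4 and FZD7 passed it through the knockout value alone and FZD2 through the parental value alone. A gene that passes in this way is bound to differ, so the filter lends the WNT2B and SFRP4 differences no support. The plot of the members by role shows that 9 of the 10 ligands lie to the left of the filter line in both arrays.

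The promoters of the members that carry the pathway's own DNA motif, and of WNT2B, SFRP4 and TNFRSF19, 3 of the 4 members that were 2-fold apart, are printed as RefSeq gives them in GRCh38.p14, each as the 250 bases before the gene's outermost listed start. Capitals mark the core of the TCF/LEF site, CTTTGA, and the core of the SOX site, AACAANG, both searched on both strands, so that a match on the other strand reads TCAAAG or CNTTGTT here. Both cores are bound by HMG-box proteins, and other spellings of either site were not searched. A table of promoter windows of 300 bases, 250 before and 50 after the start, held 29 of the 46 members in 38 windows. The other 17 members, FZD6 among them, had no window and were not searched.
DKK1, chr10:52314031-52314280, plus strand: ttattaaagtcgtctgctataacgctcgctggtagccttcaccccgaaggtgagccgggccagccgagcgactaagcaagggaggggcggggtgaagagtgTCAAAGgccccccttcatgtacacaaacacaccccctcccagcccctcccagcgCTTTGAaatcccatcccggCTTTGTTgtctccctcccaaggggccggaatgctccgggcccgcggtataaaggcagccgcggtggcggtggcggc
SP5, chr2:170715087-170715336, plus strand: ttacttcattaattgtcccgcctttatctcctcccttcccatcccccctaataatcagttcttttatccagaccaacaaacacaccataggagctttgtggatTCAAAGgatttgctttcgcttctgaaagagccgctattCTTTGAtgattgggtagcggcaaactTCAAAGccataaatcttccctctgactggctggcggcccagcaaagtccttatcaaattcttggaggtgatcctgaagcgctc
WNT2B, chr1:112466291-112466540, plus strand: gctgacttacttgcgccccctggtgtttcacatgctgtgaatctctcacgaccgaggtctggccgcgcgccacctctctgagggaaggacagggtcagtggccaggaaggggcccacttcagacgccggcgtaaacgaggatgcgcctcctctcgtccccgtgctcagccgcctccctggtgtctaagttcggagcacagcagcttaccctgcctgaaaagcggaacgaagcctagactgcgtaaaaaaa
SFRP4, chr7:37916818-37917067, minus strand: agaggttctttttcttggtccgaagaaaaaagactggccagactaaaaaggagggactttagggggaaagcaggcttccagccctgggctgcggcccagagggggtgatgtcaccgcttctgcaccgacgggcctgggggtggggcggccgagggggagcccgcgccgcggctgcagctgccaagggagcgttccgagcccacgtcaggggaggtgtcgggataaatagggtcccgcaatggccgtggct
TNFRSF19, chr13:23570162-23570411, plus strand: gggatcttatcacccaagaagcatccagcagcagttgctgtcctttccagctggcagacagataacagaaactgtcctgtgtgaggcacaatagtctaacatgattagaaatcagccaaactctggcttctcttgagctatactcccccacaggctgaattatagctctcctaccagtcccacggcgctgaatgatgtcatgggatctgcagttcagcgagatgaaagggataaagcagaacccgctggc

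Only SP5 and DKK1 among the 29 members searched held the TCF/LEF core. SP5, a zinc-finger gene known as a direct target of beta-catenin, has it 3 times, beginning 147, 109 and 83 bases before the start. DKK1, a secreted antagonist that is also a known target, has it 2 times, at 149 and 95 bases, together with a SOX core 76 bases before the start. Of the 38 member windows 2 held the TCF/LEF core, against 12.9% of the 35116 windows of the whole table, and 7 held the SOX core, against 12.1%. The members with a SOX core were DKK1, LEF1, TCF7, TCF7L2, WNT2B and WNT3. The WNT2B match begins 27 bases after the start, outside the stretch printed. Another motif, GCCGCC, known as a helper of some TCF/LEF sites, was in 29 of the 38 member windows and in 34.9% of all windows. It is made of G and C alone, and the base content of the windows was not compared. Of the 26 members with it, only SP5 and DKK1 also held the TCF/LEF core. No window of SFRP4 or TNFRSF19 held either core. A match is a run of letters and not a site shown to be bound, and the lack of one says nothing of the factor beyond this window.

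Both genes found with the TCF/LEF core among the members searched had nearly the same value in the knockout and parental arrays. DKK1 stood at 17.06 against 17.07, a difference of -0.01, and SP5 at 3.10 against 2.97, a difference of 0.13. SP5 lay below the level filter in both arrays. A second DKK1 cluster, for which the annotation gives no Entrez identifier, stood at 4.94 against 5.14.

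Among the ligands, WNT2B was the single gene past 2-fold. It stood at 5.38 in knockout cells and 3.35 in parental cells, a difference of 2.03 or 4.08-fold, and 215 of the 33616 named genes were higher by as much or more, WNT2B included. The next ligand was WNT4, which acts in kidney and reproductive tract development, at 3.71 against 2.99, a difference of 0.71 below the filter in both arrays. WNT5A, the best known ligand of the branches that do not use beta-catenin, stood at 3.98 against 4.46, and its second cluster at 3.68 against 4.17, so its clusters differed by -0.48 and -0.49. WNT11 and WNT5B, which also act largely outside the canonical branch, differed by 0.30 and 0.02. Of the canonical ligands, WNT3A stood at 2.91 against 2.97, WNT3 at 3.55 against 3.64 and WNT10A at 4.45 against 4.46. WNT7B at -0.01 and WNT6 at 0.29 complete the group. Every ligand apart from WNT2B thus lay below the filter in both arrays, with differences between -0.48 and 0.71. WNT2B passed the filter through the knockout value alone. WNT6 and WNT10A are neighbours on chromosome 2.

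The Frizzled receptors, multi-pass membrane proteins that bind Wnt through a cysteine-rich domain, had 1 member past 2-fold. FZD6, known in mice for the orientation of hair follicles through planar cell polarity, stood at 11.86 in knockout cells and 9.71 in parental cells, a difference of 2.14 or 4.42-fold. That is the largest difference in either direction among the 44 measured members, and 190 of all named genes were higher by as much or more. FZD4, which also binds norrin, a ligand of retinal vessels, stood at 8.60 against 7.81, a difference of 0.79. FZD7, a receptor often studied in liver cancer, stood at 4.97 against 4.42, and FZD1 at 6.98 against 6.76. These 4 receptors were higher in the knockout array and the other 5 were lower.

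The lower receptors differed by less than FZD6 and FZD4. FZD5 stood at 12.70 against 12.88, a difference of -0.18. FZD2 stood at 4.51 against 5.01, FZD9 at 4.87 against 5.33 and FZD3 at 3.33 against 3.77, each close to the filter or below it. FZD10 stood at 3.35 against 3.58. The median difference of the 9 receptors was -0.18.

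LRP6, the single-pass co-receptor that is phosphorylated when Wnt binds, had the lowest difference of the members. Its chosen cluster stood at 11.56 in knockout cells and 12.55 in parental cells, a difference of -0.99 or 1.99-fold, and 665 of all named genes were lower by as much or more. After quantile normalization of the arrays, or removal of the trend of the difference with level, it passed 2-fold at -1.05. That cluster is 1 of 8 with the symbol LRP6, and its identifier marks it as unmapped to a chromosome. The LRP6 cluster with a chromosome in its identifier stood at 9.43 against 10.20, a difference of -0.77. Whether the unmapped clusters, the chosen one among them, read LRP6 is not settled.

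The remaining unmapped clusters of LRP6 fell into 2 kinds by level. At higher values the pairs were 10.38 against 11.22, 9.02 against 9.95, 8.04 against 8.89, and 7.92 against 8.83, with differences from -0.93 to -0.85. Near the filter or below it the pairs were 5.13 against 4.89 and 4.07 against 4.26, with differences of 0.25 and -0.19. A pair of the unmapped clusters gave the same difference to 5 decimals, -0.84647, so the clusters may not be separate measurements and their number is no support. Over all 1002 unmapped clusters of the table the median difference was -0.06, with 573 lower and 417 higher.

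**Figure D2:**
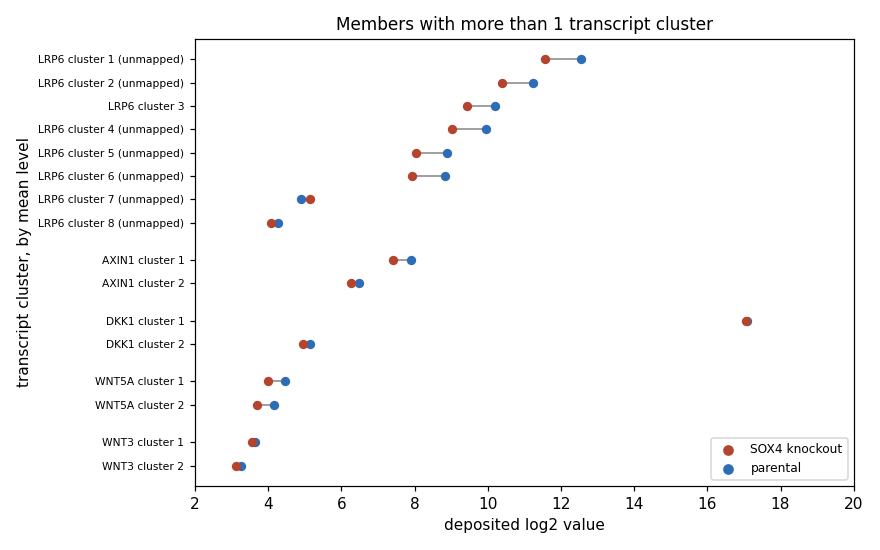
Deposited log2 value (horizontal axis) of every transcript cluster of the 5 members that have more than 1, in the SOX4 knockout array (red) and the parental array (blue), ordered by mean level within a gene. The 6 brightest LRP6 clusters have blue to the right, with differences from -0.99 to -0.77, and the 2 dim ones lie close together.

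The R-spondin receptors LGR4 and LGR5 bind secreted R-spondins and thereby keep Frizzled at the cell surface. LGR4 stood at 13.18 in knockout cells and 12.50 in parental cells, a difference of 0.68 or 1.60-fold. LGR5, a stem cell marker and a target of the pathway, stood at 9.86 against 9.93, a difference of -0.06. The R-spondin receptors thus lay within 1.60-fold of parental, LGR4 on the higher side.

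The ubiquitin ligases that take Frizzled off the surface, RNF43 and ZNRF3, stood at 9.99 against 10.12 and at 8.44 against 8.14. Their differences were -0.13 and 0.30. AXIN2, the most widely used reporter of canonical signalling, stood at 4.61 against 4.76, just below the filter in both arrays. NKD1, a target that binds Dishevelled, stood at 4.01 against 4.37. AXIN1, the scaffold of the destruction complex, stood at 7.40 against 7.91 by its brighter cluster, which has no Entrez identifier in the annotation, and at 6.25 against 6.48 by the cluster that has one. These 5 genes, listed together as feedback regulators although AXIN1 is the scaffold, had a median difference of -0.15, none past 2-fold. AXIN1 was the lowest of them at -0.51.

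Among extracellular antagonists, SFRP4 was the member past 2-fold. SFRP proteins resemble the Wnt-binding domain of Frizzled and hold ligand outside the cell. SFRP4 stood at 5.73 in knockout cells and 4.07 in parental cells, a difference of 1.66 or 3.17-fold, and 338 of all named genes were higher by as much or more. The related SFRP1, SFRP2 and SFRP5 lay below the filter in both arrays, with differences of 0.06, -0.51 and -0.45. NOTUM, an enzyme that strips the lipid from Wnt and is itself a target, stood at 8.04 against 7.80, a difference of 0.24. DKK3, WIF1 and the membrane inhibitor APCDD1 lay below the filter in both arrays, with differences of 0.45, 0.25 and -0.05. DKK1, which blocks LRP6, has been described above with its promoter. The median difference of the 9 antagonists was 0.06.

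All 3 nuclear effectors measured among the members stood higher in the knockout array, none by 2-fold. TCF7L1, a further TCF factor that is not a member and is given below, was lower, with a difference of -1.79. CTNNB1, the gene of beta-catenin, stood at 14.60 against 13.92, a difference of 0.69 or 1.61-fold. LEF1, an HMG-box factor that is also induced by the pathway, stood at 9.21 against 8.55, a difference of 0.66 or 1.58-fold. TCF7L2, a TCF factor of gut and liver, stood at 7.25 against 7.17, a difference of 0.07. Over all named genes, 2322 were higher by as much as CTNNB1 or more, and 2483 by as much as LEF1 or more.

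Of the targets, TNFRSF19, a member of the TNF receptor family that is induced by beta-catenin and is also called TROY, was the member past 2-fold. It stood at 7.09 in knockout cells and 5.88 in parental cells, a difference of 1.21 or 2.31-fold, and 746 of all named genes were higher by as much or more. GLUL, which makes glutamine and marks the hepatocytes around the central vein, stood at 15.42 against 15.69, a difference of -0.27. TBX3, a T-box repressor and target in liver tumours, stood at 11.98 against 11.85, a difference of 0.13. MYC, the growth-promoting transcription factor, stood at 11.48 against 12.01, a difference of -0.53 or 1.44-fold. With SP5, the 5 targets had a median difference of 0.13. Of the members known to be induced by beta-catenin, AXIN2, LGR5, NKD1, NOTUM, RNF43, ZNRF3, SP5, GLUL and TBX3 differed by -0.35 to 0.30, with both signs among them, and DKK1 by -0.01. LEF1 at 0.66 and TNFRSF19 at 1.21 lay above that range and MYC at -0.53 below it. This grouping was made after the values were seen.

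The other parts of the pathway were described by 9 lists holding 159 genes, of which 148 were measured. Of these, 9 (6.08%) were past 2-fold on the higher side and 8 (5.41%) on the lower side, against 3.36% and 1.94% of all named genes and 5.34% and 2.8% of the protein-coding ones. The counts of the single lists below stand beside the same shares, with no test of any list. The median difference was 0.03. The median over all named genes was 0.00.

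The nuclear co-factors had 1 gene 2-fold higher and 3 lower among 20 measured genes. TCF7L1, the TCF factor that mainly represses, stood at 6.40 in knockout cells and 8.19 in parental cells, a difference of -1.79. CTNNBIP1, which binds beta-catenin and keeps it from TCF, stood at 5.62 against 7.03, a difference of -1.41. The Groucho co-repressors differed in direction: TLE3 stood at 7.59 against 5.77 by the brighter of its 2 clusters, a difference of 1.82, and TLE4 at 7.75 against 9.14, a difference of -1.39. The list's median difference was -0.22.

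In the destruction complex and its partners, 2 of 23 measured genes were past 2-fold, both higher. They were the paralogous F-box genes BTRC, at 11.44 against 9.93, and FBXW11, at 12.47 against 11.18, whose proteins recognise phosphorylated beta-catenin for destruction and also other substrates. The lowest gene was TNKS2, a tankyrase that modifies axin, at -0.64, and the median of the list was -0.02. Other co-receptors and R-spondins had 1 of 17 higher and 1 lower. KREMEN1, a DKK receptor, stood at 7.80 against 6.59, and GPC4, a glypican, at 7.12 against 8.57, and the median was 0.03. In the planar polarity and calcium branch, 1 of 19 was higher and 1 lower, and they were paralogs: VANGL1 stood at 9.81 against 8.76, a difference of 1.05, and VANGL2 at 4.38 against 5.93, a difference of -1.55. The median of that branch was -0.06.

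Other ligands and secretion factors had none of 10 past 2-fold, from -0.26 for WNT1 to 0.79 for WNT8A, with a median of 0.08. Of 11 other secreted inhibitors 1 was lower, CER1, which binds BMP and Nodal, at 4.51 against 8.84, and the highest was SERPINF1 at 0.76. The median of that list was -0.48, with 7 of 11 below 0, and 4 of the 11 had a value above the level filter. As reported, that median was the farthest from 0 of the 9 lists. With the mean of all clusters of a gene it was -0.30, nearer 0 than the 0.32 of the further targets given next. Of 24 further genes widely used as targets, 3 were higher and 1 lower, with a median of 0.32. CD44, the hyaluronan receptor, stood at 9.03 against 4.95, BMP4 at 13.05 against 11.81, FOSL1 at 5.67 against 4.51 and DUSP6 at 9.04 against 10.22. These genes also answer to other pathways. CER1 and VANGL2 passed the level filter through the parental value alone and FOSL1 through the knockout value alone. The filter therefore lends the differences of CER1, VANGL2 and FOSL1 no support. Of 14 Wnt-dependent genes of the hepatocytes around the central vein, 1 was past 2-fold, CYP1A1 with a difference of 3.46, and the lowest was SLC1A2 at -0.40. Only 7 of these 14 had a value above the level filter, and SLC1A2 lay below it in both arrays. The opposite, periportal list had 1 of 10 lower, CPS1 at -4.21, with G6PC1 highest at 0.42. The medians of the pericentral and periportal lists were -0.03 and -0.19.

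**Figure D3:**
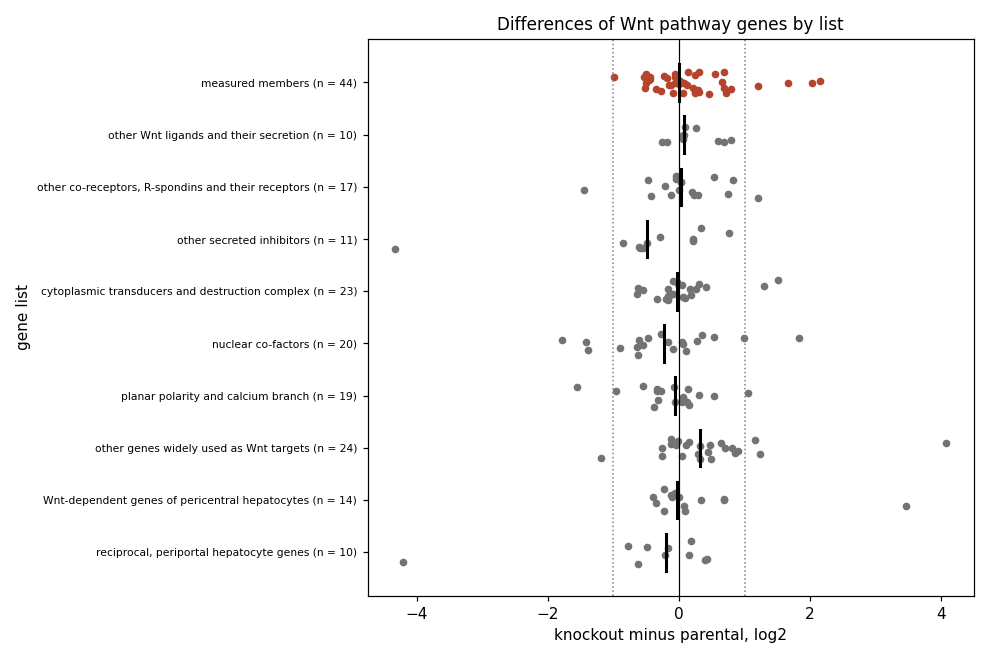
Knockout minus parental difference on the log2 scale (horizontal axis) of each measured Wnt member (red points) and of each measured gene in 9 further lists (grey points), with the median of each list as a black bar and 2-fold as dotted lines. The members' median is 0.00 with 4 points past 2-fold to the right and none to the left, and the nuclear co-factors have 3 points past 2-fold to the left and 1 to the right.

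The position of the 2-fold members on their chromosomes was set beside the differences of the 4 nearest named protein-coding genes on each side, in RefSeq order. For FZD6 the 8 neighbours ran from -0.67 to 0.45. Among them was CTHRC1, a secreted protein that binds Wnt and Frizzled, at 0.30. For WNT2B they ran from -0.47 to 0.97 and for TNFRSF19 from -0.22 to 0.78. None of these 24 neighbours was 2-fold apart.

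SFRP4 differed from the other 3 in this respect. Of its 8 neighbours on chromosome 7, 2 were past 2-fold on the higher side: EPDR1, the next gene, stood at 8.85 against 5.72, and ELMO1 at 9.84 against 3.72, differences of 3.14 and 6.12. The 8 neighbours had a median difference of 0.56 and the lowest, AOAH, stood at -0.99. The part of the shared position in the SFRP4 value was not tested. The neighbours of LRP6 ran from -0.98 for DUSP16 to 0.75 for CREBL2.

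**Figure D4:**
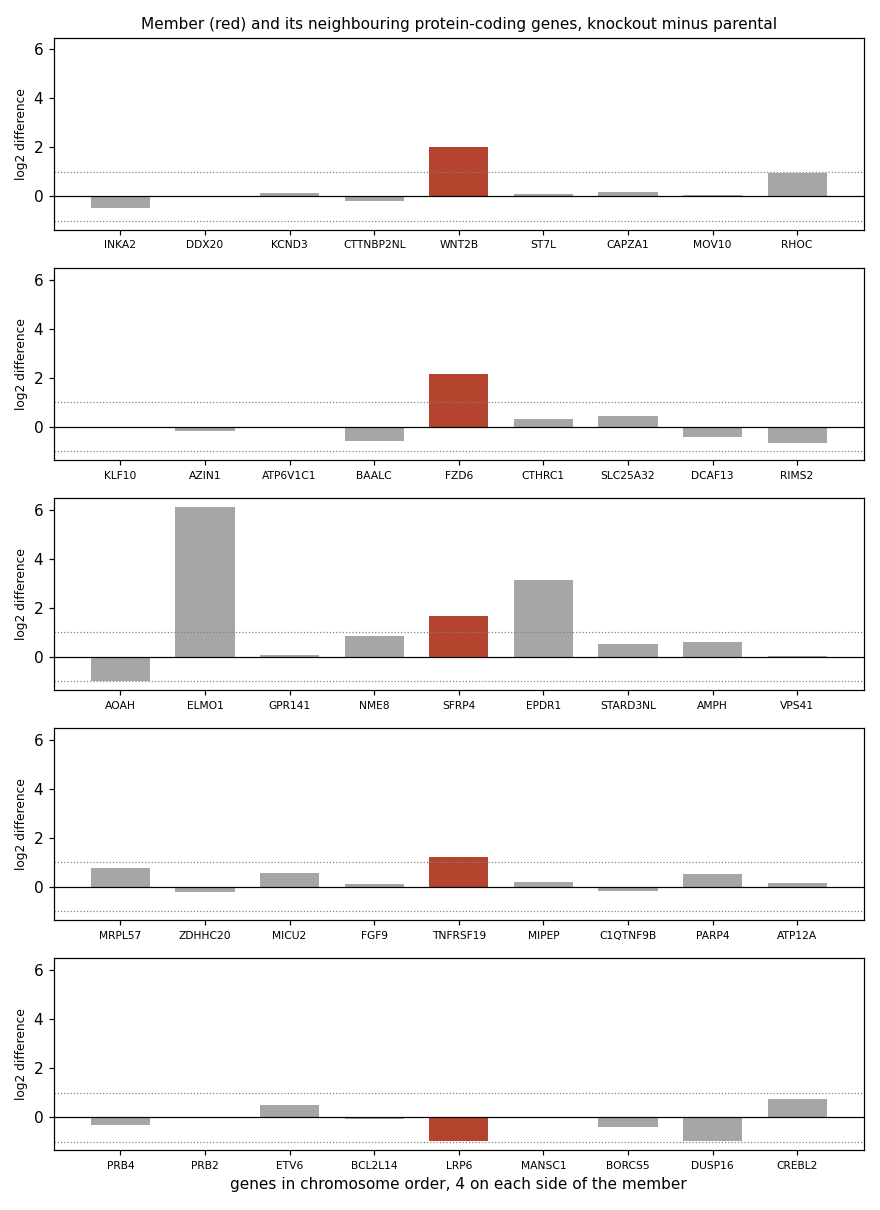
Knockout minus parental difference on the log2 scale (vertical axis) of WNT2B, FZD6, SFRP4, TNFRSF19 and LRP6 (red bars) and of the 4 nearest named protein-coding genes on each side (grey bars), in chromosome order, with 2-fold as dotted lines. Only the SFRP4 panel has neighbours past 2-fold, ELMO1 and EPDR1.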

How the data were processed

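Gene expression was measured on 1 array of SOX4 knockout and 1 of parental Hep3B cells. The authors deposited log2 values. The submitters' processing notes name RMA, which adjusts background, scales arrays to each other and combines probes, and Transcriptome Analysis Console. A genome build is not given in the sources at hand. The highest values, 19.80 and 19.82, exceed log2 of a 16-bit scanner signal, so folds hold on the deposited scale only.

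The annotation supplied gives 1 symbol to 36176 of 135750 transcript clusters, several to 1119 and none to 98455. A gene with several clusters was read by the one with the highest mean, and 33616 genes were named. RefSeq (GRCh38.p14) held the Entrez identifiers of 24344 of them, and of 43 of the 44 measured members. It supplied gene type, gene order and promoters; its coordinates are printed with the promoters alone. Differences of 2-fold (1 on the log2 scale) or more were counted, with no test. The number of arrays limits the precision.

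The members, lists and rules were chosen with earlier results of these data known. Named were all members, SOX4, and in each other list up to 4 genes 2-fold apart above the level filter with the highest and lowest gene. Markers, neighbours, CTHRC1 and ELMO1 were named after their values were seen. Alternatives were quantile normalization, median centring, removal of a running median over 1001 genes by level, the mean of all clusters, other thresholds and other level filters. Counting was tested on simulated data. Python 3.11.15, pandas 2.3.3, numpy 2.4.6 and matplotlib 3.10.9 were used.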

Additional observations from a re-analysis of the deposited data

How the results depend on the processing

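No paired analysis was possible because each line has 1 array. Under 4 alternatives (quantile normalization, median centring, removal of the trend with level, and the mean of all clusters of a gene), 44 of 45 genes, the measured members and SOX4, moved by less than 1.5-fold and stayed on the same side of 2-fold. The exception was LRP6, at -1.05 after quantile normalization and -1.05 after removal of the trend, which made 1 member at least 2-fold lower where 0 were lower as reported; the cause was not tested. With the mean of its 8 clusters LRP6 moved toward 0 by 0.34. The largest move of a member was 0.07 under quantile normalization, 0.02 under median centring and 0.09 under removal of the trend. The mean of all clusters can change only genes with more than 1 cluster. All alternatives use the same 2 arrays and stand in for no replicate. At a 1.5-fold threshold 9 of the 44 members were higher and 1 lower, against 8.996% and 7.42% of all named genes, and at 4-fold 2 were higher and 0 lower, against 0.672% and 0.238%. Among members whose higher value exceeded the upper quartile over named genes, 8.55, only FZD6 was at least 2-fold higher. The share over all named genes above that level was not computed, so this count has no background to be read against. The members' median ranged from 0.00 to 0.17 over all alternatives tried, and was highest over the members above the level filter. The alternatives moved the median of all genes by at most 0.02.

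No detection calls were used here, so how far signals near or below the level filter exceed background is unknown. The spread between cultures was not measured.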
